A study of Rattus norvegicus with 6 samples.

Results

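The immediate early and stress transcription genes Fos, Jun, Junb, Atf3, Egr1, Nr4a1, Myc and Dusp1 were followed through injury of the rat liver. They were taken by Ensembl ID from a list of 8 named genes, and all 8 were present among 26689 gene IDs. All 8 also passed the expression filter, which kept 9932 genes. Fos, Nr4a1 and Atf3 had too few liver reads to pass by liver alone and passed only with their hepatocyte reads. The files carry IDs only and none of them (0 of 26689) is found in the reference table, so the pairing of ID and symbol comes from the list and could not be checked, although all 8 symbols are rat genes in that table. The list was chosen by known function, after Fos had been selected on its higher level in hepatocytes than in liver. That contrast is therefore described here without a test, for the other 7 genes as well.

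Immediate early genes are transcribed within minutes of a stimulus, from factors already present in the cell, and need no new protein. Growth factors, cytokines, cell stress and calcium reach them through MAP kinases, which act on serum response factor and its partners, and through CREB, which binds the cyclic AMP response element. In liver they are known from regeneration, from the acute phase and from oxygen stress, and their messages usually decay quickly.

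The samples came from 3 conditions in Rattus norvegicus. Control animals were healthy and untreated, and the labels name no sham operation. IR animals underwent ischemia reperfusion, a temporary clamp of the portal vein followed by return of blood flow. Treated IR animals had the same procedure with 2 drugs. They received 9 mg/kg of etanercept, a soluble receptor that captures tumor necrosis factor, from 18 to 16 h ahead of IR. Nitroglycerin, which releases nitric oxide, ran at 6 µg/kg/min into a vein before IR and throughout it. RNA was taken 1 day after IR from whole liver and, in additional animals, from hepatocytes freshly isolated with collagenase in 2 steps of perfusion. The labels give no strain, sex or age. RNA of 3 animals was pooled into 1 library for each of the 6 groups, so no group has a second library and a difference between 2 libraries has no replicate check. The drugs were given together and cannot be told apart. Hepatocytes differ from liver in cell makeup, in the isolation step and in the animals, which cannot be told apart either. In whole liver, fewer cells of a type and less RNA per cell cannot be told apart. The lists of cell type markers and of further immediate early genes were not read, because the IDs could not be paired with symbols.

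Reads in genes ran from 1945331 in liver control to 7160610 in liver IR. Levels are given as CPM, the reads of a gene relative to the size of its library, scaled by the trimmed mean of M values (TMM), with a 95% exact interval for counting error. A library without a read is set at 3 reads for ratios and figures, which equals 1.31 CPM in liver control. The 95% interval for 0 reads reaches further there, to 1.61 CPM. The genes differ in length, so levels are compared between libraries and never between genes. The 8 genes together took 0.00966% to 0.0208% of reads in the liver libraries and 0.0614% to 0.0771% in the hepatocyte libraries. Dusp1 alone held 347 of these 405 reads in liver control, 333 of 692 in liver IR and 2341 of 4116 in hepatocyte IR.

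Promoter sequences are shown first, because the control regions of these genes are well described. RefSeq sequence on the GRCr8 build was at hand for 4 of the 8 genes: Junb, Egr1, Nr4a1 and Dusp1. The 250 bases before the annotated start were searched on both strands for 5 motifs. These were the core of the cyclic AMP response element (CRE), TGACG; the palindromic CRE, TGACGTCA, which holds the core on both strands; the AP-1 site, TGACTCA or TGAGTCA; the TATA box, TATAAA; and the CArG box, to which serum response factor binds. The sequences of 3 of the genes are given 5′ to 3′ on the plus strand, with matches in capitals. Where a core lies on the minus strand, its complement CGTCA is in capitals.
Dusp1 (chr10:17184603-17184852): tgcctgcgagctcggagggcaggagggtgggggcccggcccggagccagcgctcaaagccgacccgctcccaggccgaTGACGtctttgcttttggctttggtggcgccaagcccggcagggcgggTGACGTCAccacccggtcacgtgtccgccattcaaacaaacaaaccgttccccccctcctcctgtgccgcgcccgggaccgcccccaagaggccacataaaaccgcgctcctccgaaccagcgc
Nr4a1 (chr7:134259888-134260137): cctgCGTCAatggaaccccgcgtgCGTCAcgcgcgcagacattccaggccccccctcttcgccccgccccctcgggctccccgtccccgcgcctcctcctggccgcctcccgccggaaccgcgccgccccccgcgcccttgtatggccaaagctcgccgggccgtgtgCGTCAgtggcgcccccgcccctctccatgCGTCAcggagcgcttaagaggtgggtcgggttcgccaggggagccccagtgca
Junb (chr19:40080876-40081125): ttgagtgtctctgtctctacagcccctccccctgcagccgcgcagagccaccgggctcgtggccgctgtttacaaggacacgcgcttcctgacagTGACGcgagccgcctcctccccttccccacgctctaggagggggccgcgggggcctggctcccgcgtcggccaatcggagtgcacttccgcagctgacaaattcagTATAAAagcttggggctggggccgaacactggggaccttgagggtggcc

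All 4 promoters held a CRE core, against 18.2% of the 33469 rat promoters in the same table. Nr4a1 had 4 cores, Dusp1 3, Egr1 2 and Junb 1. One palindromic CRE was found, in Dusp1, where it accounts for 2 of the 3 cores, and 1.59% of all promoters hold one. Egr1 had 2 CArG boxes, a motif found in 1.5% of all promoters, and the other 3 promoters had 0. Junb had 1 TATA box (12.9% of all promoters). No AP-1 site was found in these 4 windows, and 4.05% of all promoters hold one. A match describes letters and is no proof of a site in use.

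**Figure D1:**
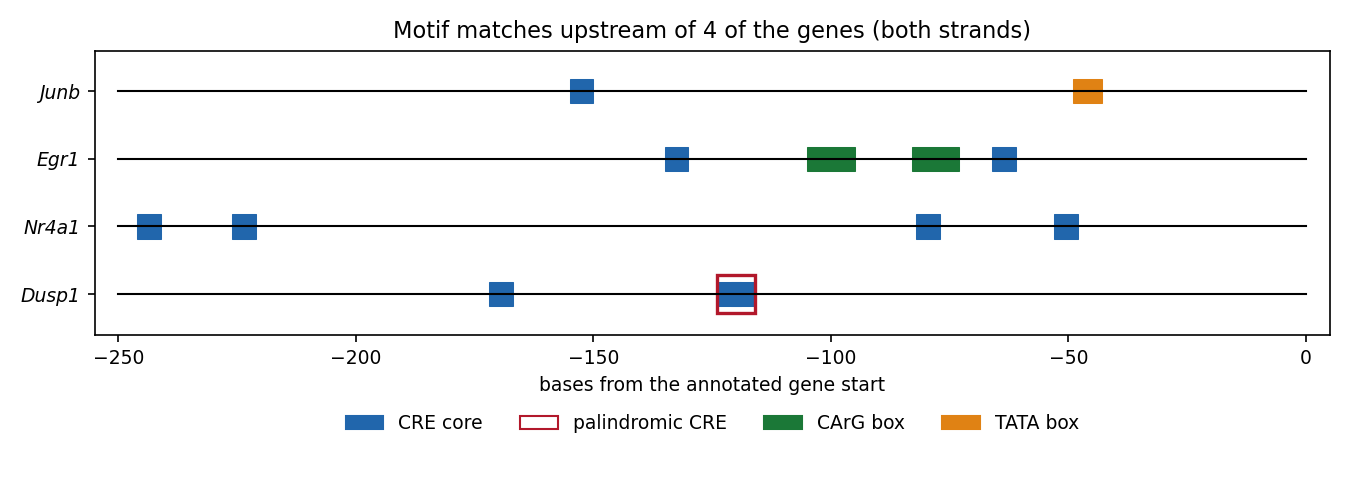
Positions of motif matches in the 250 bases before the annotated start of Junb, Egr1, Nr4a1 and Dusp1, in bases from that start. Filled boxes are CRE cores (blue), CArG boxes (green) and the TATA box (orange), and the open red box is the palindromic CRE of Dusp1. The 2 CArG boxes of Egr1 lie between its 2 CRE cores.

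The 3 AP-1 genes are taken first. Fos (ENSRNOG00000008015) encodes a subunit of AP-1, a dimer that forms between Fos and Jun proteins. Fos had 0, 2 and 6 reads in control, IR and treated IR liver, and 96, 43 and 69 reads in hepatocytes in the same order. This is at most 0.799 CPM in a liver library with reads, and 29.7, 8.29 and 32.0 CPM in hepatocyte control, IR and treated IR. Every hepatocyte library lay above every liver library, and within hepatocytes the IR library stood alone at the low end. The other 2 hepatocyte libraries did not differ beyond counting error (ratio 1.08, interval 0.777 to 1.48). The 3 liver libraries, with so few reads, could not be ordered.

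Jun (ENSRNOG00000026293) encodes the main partner of Fos and can also pair with itself. Jun was at 10.01, 4.58 and 9.85 CPM in control, IR and treated IR liver, and at 101, 75.0 and 141 CPM in hepatocytes. Liver control and liver treated IR did not differ beyond counting error (ratio 0.984, interval 0.609 to 1.65), and liver IR lay below both. In hepatocytes the IR library was again lowest and treated IR highest.

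Junb (ENSRNOG00000042838) encodes an AP-1 subunit that often restrains Jun. Junb was at 8.70, 18.2 and 23.8 CPM in control, IR and treated IR liver, and at 77.4, 55.2 and 135 CPM in hepatocytes. In liver the control library was the lowest, whereas in hepatocytes the IR library was. Fos, Jun and Junb thus had the same order of libraries in hepatocytes, treated IR above control above IR, although the first step of that order was within counting error for Fos. By library totals alone that step was reversed for Fos, at 27.8 CPM in control and 25.4 in treated IR. Atf3 and Nr4a1, below, also had this order in hepatocytes, though for each of them a step of it was within counting error. The share of all tested genes with this order was not counted, so nothing is read from its recurrence.

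Atf3 (ENSRNOG00000003745) encodes a stress-induced member of the ATF/CREB family that mostly acts as a repressor. Atf3 had 0 reads in liver control and 3 in liver IR, but 68 in liver treated IR, or 9.06 CPM (interval 7.03 to 11.5). In hepatocytes it was at 10.2, 9.45 and 22.7 CPM in control, IR and treated IR. The treated library was the highest of its preparation in both, and hepatocyte control and IR did not differ beyond counting error (ratio 0.925, interval 0.583 to 1.48). The interval of liver treated IR overlapped those of hepatocyte control (7.03 to 14.3) and hepatocyte IR (6.99 to 12.5). By library totals alone liver treated IR, at 11.2 CPM, was above hepatocyte control at 9.57 and hepatocyte IR at 9.18.

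Egr1 (ENSRNOG00000019422) encodes a zinc finger factor that serum response factor and its partners switch on. Egr1 was at 2.18, 17.9 and 24.1 CPM in control, IR and treated IR liver, with 5, 121 and 181 reads. In hepatocytes it was at 54.2, 155 and 67.2 CPM, with 175, 801 and 145 reads. Liver control was the lowest library by far, and the highest was hepatocyte IR, where Fos and Nr4a1 were at their hepatocyte minimum.

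Nr4a1 (ENSRNOG00000007607) encodes Nur77, an orphan nuclear receptor that takes part in hepatic glucose metabolism. Nr4a1 had 2, 3 and 13 reads in control, IR and treated IR liver, at most 1.73 CPM. In hepatocytes it was at 19.8, 8.68 and 28.3 CPM. Its order in hepatocytes was that of Fos, with IR lowest, and control and treated IR did not differ beyond counting error (ratio 1.43, interval 0.987 to 2.06).

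Myc (ENSRNOG00000004500) encodes a factor that drives growth and entry into the cell cycle. Myc was at 3.48, 11.2 and 11.3 CPM in control, IR and treated IR liver, with 8, 76 and 85 reads, and at 8.05, 31.2 and 9.73 CPM in hepatocytes. Its liver and hepatocyte levels overlapped. Hepatocyte IR was highest, and liver IR and liver treated IR did not differ beyond counting error (ratio 1.01, interval 0.731 to 1.39).

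Dusp1 (ENSRNOG00000003977) encodes a phosphatase that switches off MAP kinases and so limits the response that induces it. Dusp1 was at 151, 49.2 and 43.9 CPM in control, IR and treated IR liver, and at 355, 452 and 443 CPM in hepatocytes. It was the only gene of the 8 for which liver control was above both other liver libraries beyond counting error.

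**Figure D2:**
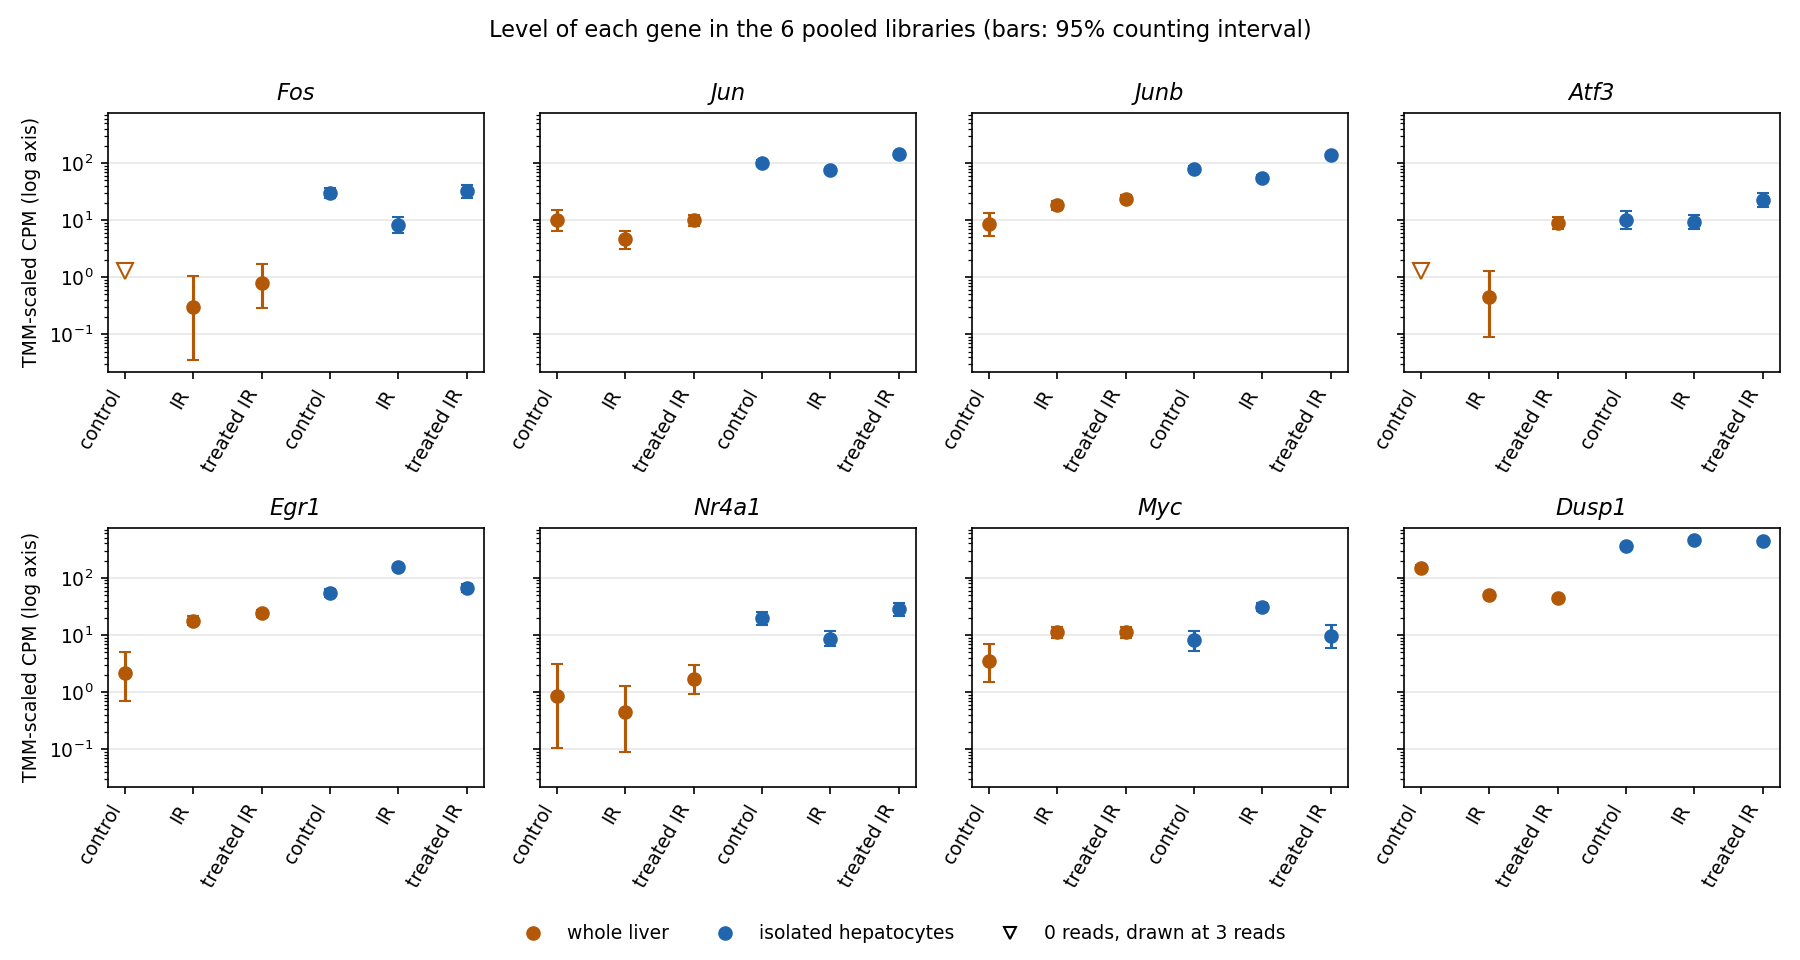
TMM-scaled CPM (log axis) of each gene in the 6 pooled libraries, with whole liver in orange and isolated hepatocytes in blue. Points are single libraries with 95% counting intervals, and open triangles mark 0 reads drawn at 3 reads. Hepatocyte points lie above all liver points in 7 of the panels at this scaling, with overlapping intervals in the Atf3 panel, and in the Myc panel the points overlap.

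The first comparison asked what IR changed. In liver, a gene was called apart between 2 libraries if its ratio was at least 2-fold and its counting interval excluded equality. Egr1, Myc and Junb were higher in liver IR than in liver control, 3 of 8 genes, where 3.76% of all tested genes were higher. Egr1 was 8.22-fold higher (interval 3.43 to 25.8), Myc 3.23-fold (1.56 to 7.74) and Junb 2.09-fold (1.30 to 3.54). Jun and Dusp1 were lower, 2 of 8 genes, where 2.23% of all tested genes were lower. Dusp1 was 3.07-fold lower (2.63 to 3.58) and Jun 2.18-fold lower (1.22 to 3.87). Fos, Atf3 and Nr4a1 had at most 3 reads in both libraries, so that no difference was detectable at this depth. The AP-1 genes Jun and Junb thus lay in opposite directions in liver. With scaling by library totals alone, which moves every log2 ratio of this pair by -0.32, Junb no longer passed, and 1.33% of all tested genes were higher and 5.79% lower.

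In hepatocytes Egr1 and Myc were higher in IR than in control, 2 of 8 genes, where 9.53% of all tested genes were higher. Egr1 was 2.85-fold higher (2.42 to 3.38) and Myc 3.88-fold higher (2.55 to 6.12). Fos and Nr4a1 were lower, 2 of 8 genes, where 6.93% of all tested genes were lower. Fos was 3.58-fold lower (2.48 to 5.26) and Nr4a1 2.28-fold lower (1.54 to 3.42). Jun, Junb, Atf3 and Dusp1 were within 2-fold. The median log2 ratio of the 8 genes was -0.27, beside 0.015 over all tested genes. The split between genes does not depend on scaling when read within a library: there were 1.82 Egr1 reads per Fos read in hepatocyte control (1.41 to 2.36), 18.6 after IR (13.7 to 25.9) and 2.10 after treated IR (1.57 to 2.84). For Myc there were 0.271 reads per Fos read in control, 3.77 after IR and 0.304 after treated IR.

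Egr1 and Myc were thus higher after IR in both preparations, which share no library, and 45 of 9932 genes (0.453%) were. None of the 8 genes was lower in both, where 0.121% of all tested genes were. For Dusp1 the liver ratio was below 1 and the hepatocyte ratio was 1.27 (1.19 to 1.37), and whether the preparations differ in this was not tested. Across both preparations the additive model, which fits preparation and condition and leaves 2 residual degrees of freedom, called 0 of the 8 genes (0% of all tested genes) at an adjusted p of 0.05. The log2 ratio was 1.79 for Egr1 (SE 0.52, edgeR quasi-likelihood unadjusted p = 0.00369, adjusted p = 0.996) and 1.81 for Myc (SE 0.46, unadjusted p = 0.00159, adjusted p = 0.996). Fos was at -1.59 (SE 0.55) and Nr4a1 at -1.15 (SE 0.49), with edgeR adjusted p = 0.996 for both. In liver control and IR, Fos had 0 and 2 reads and Nr4a1 2 and 3. Both estimates therefore rest mainly on the hepatocyte libraries. Of all tested genes 332 had an unadjusted p under 0.05, and DESeq2 and limma-voom also called 0. The call depended on single libraries for 3 genes. Where a library of a compared condition was left out, 1 library stood for that condition, and the p holds no replicate of it. Without liver IR, when hepatocytes alone stood for IR, Egr1, Myc and Fos passed with edgeR adjusted p = 0.00187, 0.000876 and 0.0246, and 3.82% of all tested genes passed with them. Egr1 also passed without either treated library (0.0302% of all tested genes each) and with no expression filter (0.0181%), and over 12 alternatives its adjusted p ran from 0.00187 to 1. The ratios moved as well. With 1 library left out, the log2 ratio of Egr1 ran from 1.17 without liver control to 3.49 without hepatocyte control, and that of Myc from 1.09 without hepatocyte IR to 2.26 without liver IR. Fos changed direction, from -1.78 without liver control to 3.30 without hepatocyte control, when liver control with 0 Fos reads alone stood for control and the size depends on the prior count. Atf3 (-2.04 to 5.66), Dusp1 (-1.65 to 0.381) and Junb (-0.362 to 0.843) changed direction as well.

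The second comparison asked what etanercept and nitroglycerin changed after IR. In liver Atf3, Nr4a1 and Jun were higher in treated than in untreated IR, 3 of 8 genes, where 1.82% of all tested genes were higher. Atf3 was 20.4-fold higher (6.70 to 101), from 3 to 68 reads. Nr4a1 was 3.90-fold higher (1.07 to 21.4), from 3 to 13 reads, and Jun 2.15-fold (1.40 to 3.38). No gene of the 8 was lower, where 0.946% of all tested genes were lower. Egr1 at 1.35-fold (1.06 to 1.71), Junb at 1.31-fold (1.04 to 1.66), Myc at 1.01-fold and Dusp1 at 0.893-fold were within 2-fold. The median log2 ratio of the 8 genes was 0.59, beside -0.0055 over all tested genes. With library totals alone, which adds 0.39 to every log2 ratio of this pair, the same number of the 8 genes was apart, while 6.14% of all tested genes were higher and 0.262% lower.

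In hepatocytes Fos, Nr4a1, Junb and Atf3 were higher in treated IR, 4 of 8 genes, where 11.2% of all tested genes were higher. Fos was 3.85-fold higher (2.60 to 5.78), Nr4a1 3.25-fold (2.18 to 4.90), Junb 2.45-fold (2.08 to 2.90) and Atf3 2.40-fold (1.58 to 3.64). Jun, at 1.88-fold (1.62 to 2.19), fell short of the 2-fold line. Myc and Egr1 were lower, 2 of 8 genes, where 12.1% of all tested genes were lower. Myc was 3.21-fold lower (2.03 to 5.33) and Egr1 2.30-fold lower (1.93 to 2.77). Dusp1 did not differ between the 2 libraries beyond counting error (0.981, 0.909 to 1.06). The median log2 ratio of the 8 genes was 1.07, beside -0.041 over all tested genes. With library totals alone, which moves every log2 ratio of this pair by -0.29, Atf3 no longer passed, and 6.51% of all tested genes were higher and 19.3% lower. This comparison and IR vs control share the untreated IR library, whose low Fos and Nr4a1 and high Egr1 and Myc enter both.

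Atf3 (save with library totals alone) and Nr4a1 were higher in treated than untreated IR in both preparations, and 13 of 9932 genes (0.131%) were. None of the 8 was lower in both, where 0.201% of all tested genes were. The additive model again called 0 of 8 genes (0% of all tested genes, 297 of which had an unadjusted p under 0.05). The log2 ratio was 2.48 for Atf3 (SE 0.68, edgeR unadjusted p = 0.00258, adjusted p = 0.981), 1.77 for Nr4a1 (SE 0.46, unadjusted p = 0.00184, adjusted p = 0.981) and 1.89 for Fos (SE 0.55, unadjusted p = 0.00383, adjusted p = 0.981). For Fos, with 2 and 6 reads in liver IR and treated IR, the estimate rests mainly on the hepatocyte libraries. Limma-voom called 0 genes, and DESeq2 called 1 gene, which is none of the 8. The call for Atf3 rests on the choice of libraries and filter. A fit without 1 IR or treated library has 1 library for that condition, so its p holds no replicate of it. With no expression filter its edgeR adjusted p was 0.0013 (0.187% of all tested genes passed), without hepatocyte IR it was 0.00148 (0.151%), and without hepatocyte treated IR, when liver alone stood for treatment, 7.46e-05 (0.121%), in a range from 7.46e-05 to 0.9999 over 11 alternatives. Without liver IR, Fos, Junb and Nr4a1 passed instead, with edgeR adjusted p = 0.00517, 0.0315 and 0.0214, and 6.29% of all tested genes passed with them. With 1 library left out, the log2 ratio of Atf3 ran from 1.12 without liver treated IR to 4.69 without hepatocyte treated IR. That of Fos ran from 0.996 without hepatocyte IR to 2.33, and that of Nr4a1 from 1.63 to 1.995.

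The third comparison set treated animals beside healthy ones. In liver Atf3, Egr1, Myc and Junb were higher in treated IR than in control, 4 of 8 genes, where 4.82% of all tested genes were higher. Egr1 was 11.1-fold higher (4.66 to 34.5), Myc 3.25-fold (1.58 to 7.77) and Junb 2.74-fold (1.72 to 4.59). Atf3 was 6.93-fold higher against 3 reads in the control library, which had 0, and its counting interval began at 5.49. Dusp1 was lower, 1 of 8 genes, where 2.39% of all tested genes were lower, by 3.44-fold (2.95 to 4.01). The 2 livers after IR thus stood on the same side of control for Egr1, Myc, Junb and Dusp1, and both ratios share the control library.

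In hepatocytes Atf3 was the only one of the 8 apart from control, at 2.22-fold higher (1.40 to 3.56), where 4.23% of all tested genes were higher. No gene of the 8 was lower, where 4.09% of all tested genes were lower. The other 7 ratios lay between 1.08 for Fos and 1.75 for Junb (1.47 to 2.08). With library totals alone, which moves every log2 ratio of this pair by -0.24, Atf3 no longer passed, and 1.88% of all tested genes were higher and 8.17% lower. Save under that scaling, Atf3 was thus higher in both preparations, where 0.292% of all tested genes were, and none of the 8 was lower in both, where 0.131% were. The additive model called 0 of 8 genes (0% of all tested genes, 230 with an unadjusted p under 0.05, and 0 by DESeq2 and limma-voom). Atf3 had a log2 ratio of 2.34 (SE 0.73, edgeR unadjusted p = 0.00640, adjusted p = 1). It passed with no expression filter (0.0846% of all tested genes), without liver IR (0.282%), without hepatocyte IR (0.342%) and without hepatocyte treated IR (0.171%), and its adjusted p ran from 0.000284 to 1 over 11 alternatives. Egr1 passed without hepatocyte treated IR (edgeR adjusted p = 0.00265), where it ran up to 1 over 12 alternatives. With 1 library left out, the log2 ratio of Atf3 ran from 1.2 without liver treated IR to 7.99 without hepatocyte control, when liver control with 0 Atf3 reads alone stood for control and the size depends on the prior count. That of Egr1, 1.52 with all libraries, ran from 0.50 without liver treated IR to 3.10 without hepatocyte control. Any p without a treated or control library rests on 1 library for that condition and holds no replicate of it.

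**Figure D3:**
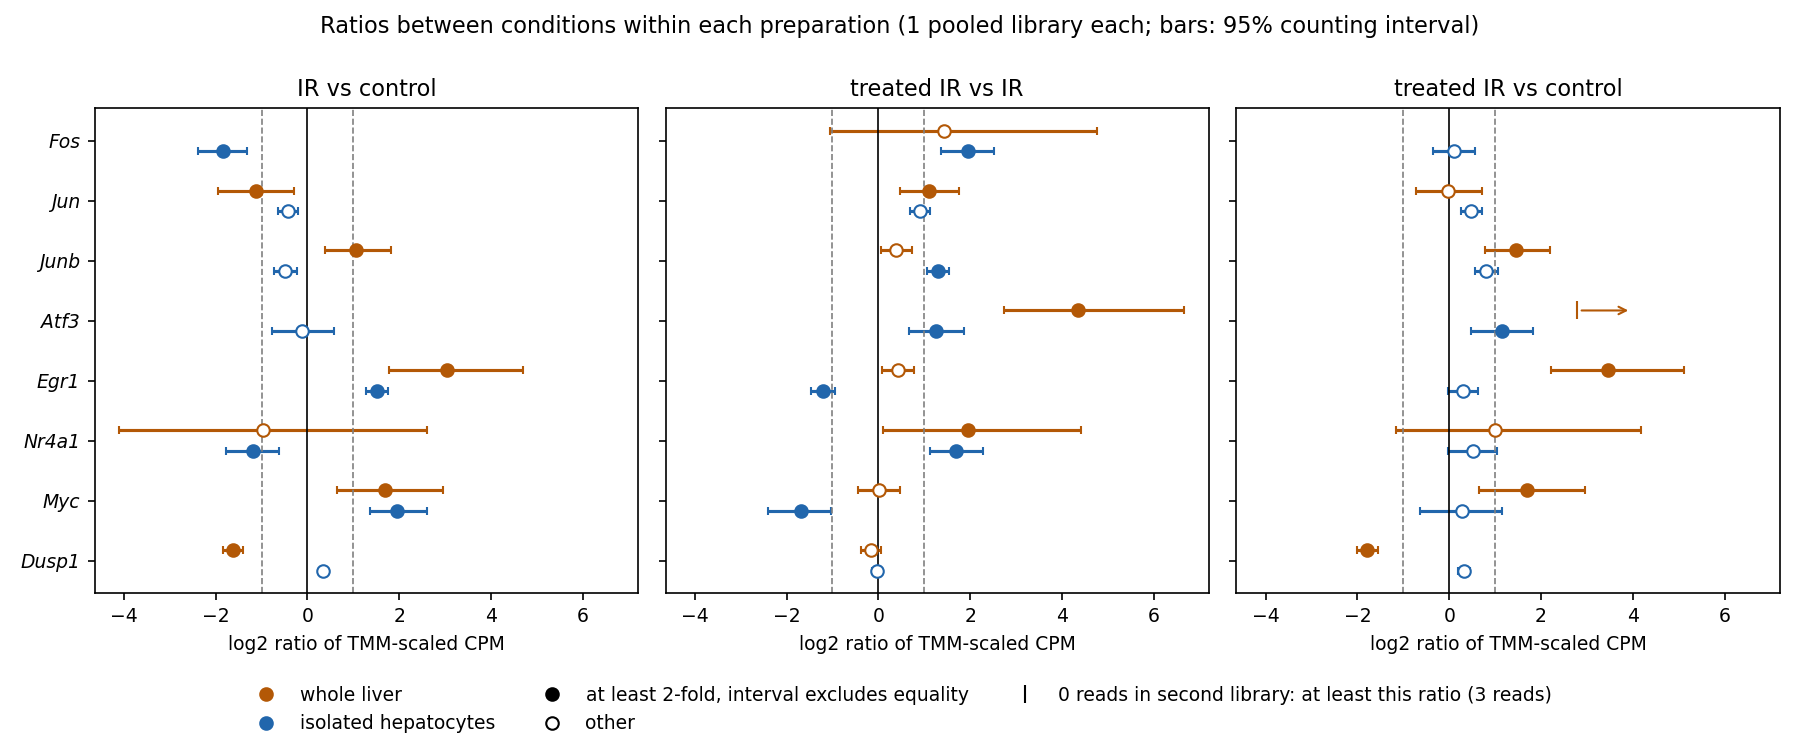
Log2 ratios of TMM-scaled CPM between conditions for each gene, with whole liver in orange and hepatocytes in blue, and bars for the 95% counting interval. Against liver control with 0 reads, Fos in both liver comparisons and Atf3 in liver IR vs control had too few reads and are not drawn. Filled points passed the 2-fold rule. The arrow marks Atf3 against 0 reads in liver control and starts at 6.93-fold, the ratio against 3 reads. Egr1 and Myc lie to the right in both preparations for IR vs control, and Atf3 and Nr4a1 do for treated IR vs IR.

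Hepatocytes were then set beside liver under each condition, as a description only. In control 8 of 8 genes were higher in hepatocytes (3.87% of all tested genes), after IR 8 of 8 (5.90%) and after treated IR 7 of 8 (6.88%), with Myc as the exception at 0.859-fold (0.506 to 1.40). None was lower, where 7.22%, 11.5% and 12.8% of all tested genes were, in the same order. With library totals alone the counts were 6, 8 and 5, where 1.64%, 6.57% and 1.09% of all tested genes were higher. Myc and Dusp1 then missed the rule in control, and Atf3 and Egr1 after treated IR. Myc also missed it in control with DESeq2's size factors and with a minimum count of 50. All genes but Myc had all hepatocyte libraries above all liver libraries (7 of 8, beside 5.76% of all tested genes). With library totals alone this held for 6 of 8, without Atf3 and Myc, beside 0.896%. The list was chosen with this contrast in view, and Fos, Nr4a1 and Atf3 passed the expression filter only with their hepatocyte reads. For both reasons nothing is read from these shares. The median log2 ratio was 3.28 in IR and 2.90 in treated IR, beside -0.014 and -0.021 over all tested genes. In control it was 3.61, or 3.18 with Fos and Atf3 at 3 liver reads, beside -0.0021.

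The size of the gap differed between genes and moved with condition for some of them. For Fos it was 22.8-fold in control against 3 reads, and its counting interval began at 18.2. The Fos gap was 28.1-fold after IR (7.31 to 239) and 40.0-fold after treated IR (17.5 to 113). Nr4a1 was 22.8-fold higher in control (6.05 to 192), 19.6-fold after IR (6.28 to 98.5) and 16.3-fold after treated IR (8.87 to 32.4). Jun ran from 10.1-fold in control (6.60 to 16.1) to 16.4-fold after IR (11.3 to 24.4). For Jun and Nr4a1 the intervals of the 3 conditions overlapped, and for Fos those of the 2 conditions with liver reads.

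For Egr1 the gap was 24.9-fold in control (10.5 to 77.6), 8.64-fold after IR (7.13 to 10.5) and 2.79-fold after treated IR (2.22 to 3.49). For Atf3 it was 7.83-fold in control against 3 reads, and its counting interval began at 6.01. The Atf3 gap was 21.3-fold after IR (6.88 to 107) and 2.51-fold after treated IR (1.70 to 3.67). The smallest gaps of both genes were thus in treated IR, where the liver library was at its highest. For Egr1 the hepatocyte level was also lower in treated IR than in IR, at 67.2 against 155 CPM. Dusp1 went the other way, from 2.35-fold in control (2.08 to 2.66) to 9.17-fold after IR (8.17 to 10.3) and 10.1-fold after treated IR (8.88 to 11.5). Junb was 8.89-fold higher in control (5.64 to 14.8), 3.03-fold after IR (2.45 to 3.78) and 5.67-fold after treated IR (4.69 to 6.87). Myc was 2.31-fold higher in control (1.02 to 5.91) and 2.78-fold after IR (2.11 to 3.70). Intervals cover counting error only, and whether the gap differs between conditions was not tested across pools. Library totals alone shift every log2 gap, by -0.33 in control, 0.041 after IR and -0.64 after treated IR. The steps of Fos, Junb and Dusp1 from IR to treated IR thus depend on scaling.

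**Figure D4:**
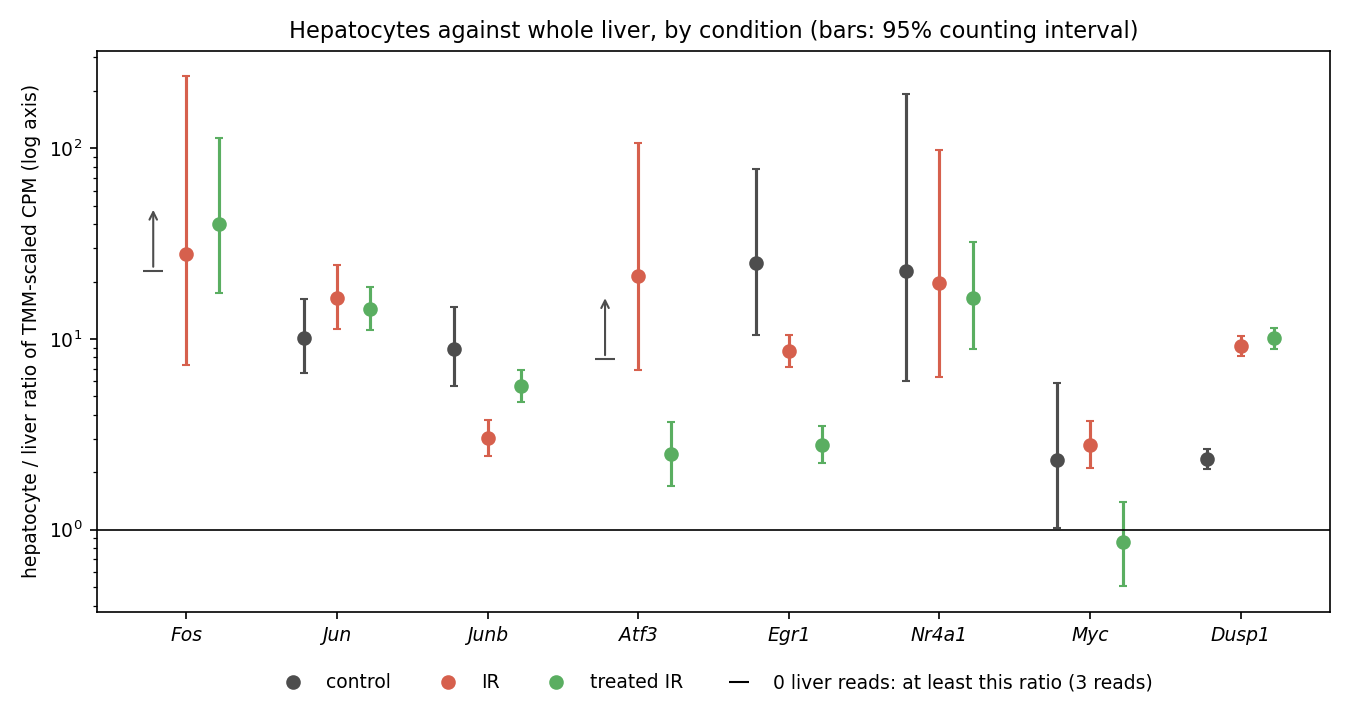
Ratio of TMM-scaled CPM in hepatocytes to that in whole liver (log axis) for each gene in control (grey), IR (red) and treated IR (green), with 95% counting intervals. Arrows start at the ratio against 3 reads where liver control had 0. The Egr1 ratio goes from 24.9 in control to 2.79 in treated IR, while that of Dusp1 goes from 2.35 to 10.1.

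The genes whose levels ran most like the mean of the 8 were looked for among the other 9924 tested genes, by Pearson's r of log2 CPM over the 6 libraries. The libraries form 2 preparations, so r mostly follows the gap between hepatocytes and liver, and no p is given. ENSRNOG00000003300 had the highest r, at 0.999. It was at 10.9, 15.8 and 29.2 CPM in control, IR and treated IR liver, and at 139, 120 and 186 CPM in hepatocytes, the same order of all 6 libraries as the mean of the 8. ENSRNOG00000047977 followed with r = 0.995, at 9.58 to 14.1 CPM in liver and 27.9 to 35.7 CPM in hepatocytes. At the other end ENSRNOG00000030266 had r = -0.997 and ENSRNOG00000047098 r = -0.987, the latter with 0 reads in all hepatocyte libraries. By Spearman's rho 31 genes, ENSRNOG00000003300 among them, shared the highest value of 1.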

How the data were processed

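Per the labels' protocols, Ion Total RNA-Seq libraries were prepared from mRNA selected on beads. TopHat2 2.0.13 and HTSeq 0.6.1 stand in the submitters' processing notes. Each deposited file holds the raw counts of 1 library by Ensembl ID. Build, annotation and strandedness were not given in the sources used here. Reads of overlapping or antisense genes cannot be told apart for that reason. Reads outside genes made up 6.23% to 8.34% of uniquely aligned reads and ambiguous reads 0.358% to 0.798%, and both were left out.

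The expression filter was filterByExpr of edgeR with a minimum count of 10, and scaling was by TMM (factors 0.795 to 1.24). Ratios between 2 libraries carry 95% Clopper-Pearson intervals, and levels exact Poisson intervals. Without molecular identifiers, both describe counting error alone. Log2 ratios in medians used a prior count of 2. Shared condition effects were tested by edgeR quasi-likelihood over all 9932 genes (model of preparation and condition, common biological coefficient of variation 0.288, Benjamini-Hochberg adjustment). The model's term for preparation is not reported, since the list was chosen with that contrast known. SE is the log2 ratio over the root of F. The tools were edgeR 4.0.16, DESeq2 1.42.0 and limma 3.58.1 in R 4.3.3. Scripts were tested on simulated data. The rule for named genes took the 8 genes, and the 2 IDs each of highest and lowest likeness. Members and lists were chosen with earlier results of these data known. Marker and pathway lists went unused for lack of symbols.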

Additional observations from a re-analysis of the deposited data

How the results depend on the processing

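No paired analysis was possible because each group holds 1 library. A fit without 1 library also leaves 1 library for its condition, so its p holds no replicate of that condition. In the additive model, leaving out 1 library at a time called 0 to 3 of the 8 genes for IR vs control (0.0101% to 3.82% of all tested genes), 0 to 3 for treated IR vs IR (0% to 6.29%) and 0 to 2 for treated IR vs control (0% to 0.342%). The 3 calls for IR vs control without liver IR were Egr1, Myc and Fos, when hepatocytes alone stood for IR. Without liver treated IR, or without hepatocyte treated IR, Egr1 alone was called (adjusted p = 0.0145 and 0.0144). With no expression filter 1 gene was called in each condition contrast, namely Egr1 for IR vs control (0.0181% of all tested genes) and Atf3 for treated IR vs IR (0.187%) and vs control (0.0846%). DESeq2's size factors, library totals alone, a minimum count of 50 (7 of the 8 genes tested), DESeq2's Wald test and limma-voom called 0 of them in all 3 condition contrasts.

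Between pairs of libraries, a 4-fold rule left 1 gene for liver IR vs control (Egr1, beside 1.30% of all tested genes), 1 for liver treated IR vs IR (Atf3, 0.373%) and 2 for liver treated IR vs control (1.71%). It left 0 genes for hepatocyte IR vs control (3.40%), 0 for treated IR vs IR (5.95%) and 0 for treated IR vs control (1.48%). Library totals alone also left 0 for hepatocyte treated IR vs control (beside 998 of 9932 genes). Of the 47 ratios between 2 libraries that passed the 2-fold rule, 0 changed sign under these alternatives. No change was possible, because the 4-fold rule leaves ratios as they are and scaling shifted them too little. The largest shift in log2, by library totals, was -0.64, for hepatocyte against liver treated IR. In the model, Fos for IR vs control was at -1.75 without liver IR, where it passed, and at 3.30 without hepatocyte control, where it did not. Counts between pairs have no version without a library. Depth limits Fos, Atf3 and Nr4a1 in liver, where 3 reads equal 0.399 to 1.31 CPM. The liver ratios of Egr1 and Myc against control rest on 5 and 8 reads in liver control. With Fos alone as the pattern, 2 other IDs led the ranking by likeness.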
